A study of Homo sapiens with 18 samples.

Results

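The amyloid precursor family and the secretases that cleave it were followed at the mRNA level in HEK293doxERN2 cells. The set held 9 genes, chosen by name from the 25435 rows of a table of RNA-Seq read counts. They were the 3 precursor genes APP, APLP1 and APLP2, the 2 beta-secretase genes BACE1 and BACE2, and the 4 gamma-secretase genes PSEN2, NCSTN, APH1A and PSENEN. HEK293 is a human embryonic kidney cell line, and all libraries came from 1 derivative of it in which doxycycline switches on a FLAG-tagged ERN2 transgene. ERN2, also called IRE1β, is an endoplasmic reticulum (ER) stress sensor with an endonuclease domain and is otherwise made in mucosal epithelium. The comparison asked how mRNA levels follow the dose of ERN2, with and without ER stress. Doxycycline was given for 24 hours at 0 ng/mL (No ERN2), 10 ng/mL (Low ERN2) or 100 ng/mL (High ERN2). At each dose, cells then received DMSO vehicle (control) or 200 nM thapsigargin (stress), an inhibitor of the ER calcium pump, for 3 hours. There were 3 libraries in each of the 6 groups and 18 in all. The control groups at 10 and 100 ng/mL thus differed from the uninduced group by doxycycline itself as well as by ERN2, and the 2 cannot be told apart here. The labels do not say whether replicates came from separate cultures, so p-values measure the spread between these libraries, which may be technical.

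The precursors are single-pass membrane proteins that enter the secretory pathway at the ER and reach the cell surface and endosomes. There the outer part is shed by an alpha-secretase or a beta-secretase, and the remaining stump is cut inside the membrane by gamma-secretase, a complex of a presenilin, nicastrin, an APH1 protein and the small subunit PEN-2. Cutting of APP by BACE1 and then by gamma-secretase releases the amyloid-beta peptides that accumulate in Alzheimer disease. The secretases are themselves membrane proteins made at the ER.

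Library depth ran from 14876416 to 24652240 reads assigned to genes. ERN2 followed the labelled doses, at 9.10, 6.57 and 7.71 CPM (read counts relative to library size, scaled by the TMM method over all libraries) in the No ERN2, control libraries, 22.5, 27.1 and 55.9 in Low ERN2, control and 252, 309 and 249 in High ERN2, control. With thapsigargin it stood at 14.2, 10.4 and 12.0, 32.1, 53.9 and 112 and 272, 175 and 175 CPM in the same order of doses, so the High ERN2, stress replicate 1 held more ERN2 than the other 2 libraries of its group. XBP1, an ER stress gene, stood at 76.8 ± 1.32 CPM (SD, n = 3) in No ERN2, control and at 481 ± 15.7 in No ERN2, stress. In High ERN2, control it stood at 168, 167 and 151 CPM, and in High ERN2, stress at 221, 199 and 225. HSPA5, DNAJB9 and DDIT3, also ER stress genes, were higher in every High ERN2, control library than in any No ERN2, control library. HSPA5 went from 468, 504 and 536 to 965, 961 and 859 CPM. Unstressed therefore means only without thapsigargin here. The labels' RNA extraction text speaks of colon crypt epithelium, against the cell line named elsewhere in them. Of 6 genes taken as markers of HEK293 cells (VIM, NEFL, NEFM, PAX2, CDH2 and KRT18), the summed level ran from 1933 to 2943 CPM over the 18 libraries. Such a sum does not show the level of each gene. Of 8 colon epithelium genes the summed level ran from 3.61 to 9.57 CPM, and 7 of them (CDX1, VIL1, MUC2, CDH17, KRT20, LGALS4 and TFF3) had under 10 reads in every library. The eighth, CDX2, had 56 to 161 reads. The libraries were therefore treated as the cell line.

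All 9 genes passed the filter on low counts in every comparison. In uninduced, unstressed cells the order of levels per kilobase of merged exons was APLP2 (115 ± 1.59 CPM per kb, SD, n = 3), APP (73.5 ± 2.19), APH1A (35.5 ± 2.76), NCSTN (33.3 ± 0.205), PSENEN (18.4 ± 2.25), BACE1 (8.58 ± 0.194), PSEN2 (8.06 ± 1.11), APLP1 (6.83 ± 1.04) and BACE2 (4.51 ± 0.248). The ranges of APH1A and NCSTN overlapped, as did those of BACE1 and PSEN2 and of PSEN2 and APLP1. The other neighbours in that order were separate. By mean level per kb of merged exons, APLP2 was highest and BACE2 lowest in all 6 groups. This order, and the places of APP given next, depend on the length used. Merged exons of BACE2 span 9619 bases against 2993 in its main GENCODE transcript, and those of APP 6316 against 3467. An order by transcript length was not made. The ranges of APLP1 and BACE2 overlapped in Low ERN2, control and in High ERN2, stress. APP was second in the 4 groups at 0 and 10 ng/mL and the fifth in both groups at 100 ng/mL, where it stood at 18.4 ± 2.18 CPM per kb in control and 9.60 ± 1.73 in stress, below NCSTN, PSENEN and APH1A. In the Low ERN2, stress group the ranges of APP and NCSTN overlapped. In both High ERN2 groups those of PSENEN and APH1A and of APH1A and APP did.

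**Figure D1:**
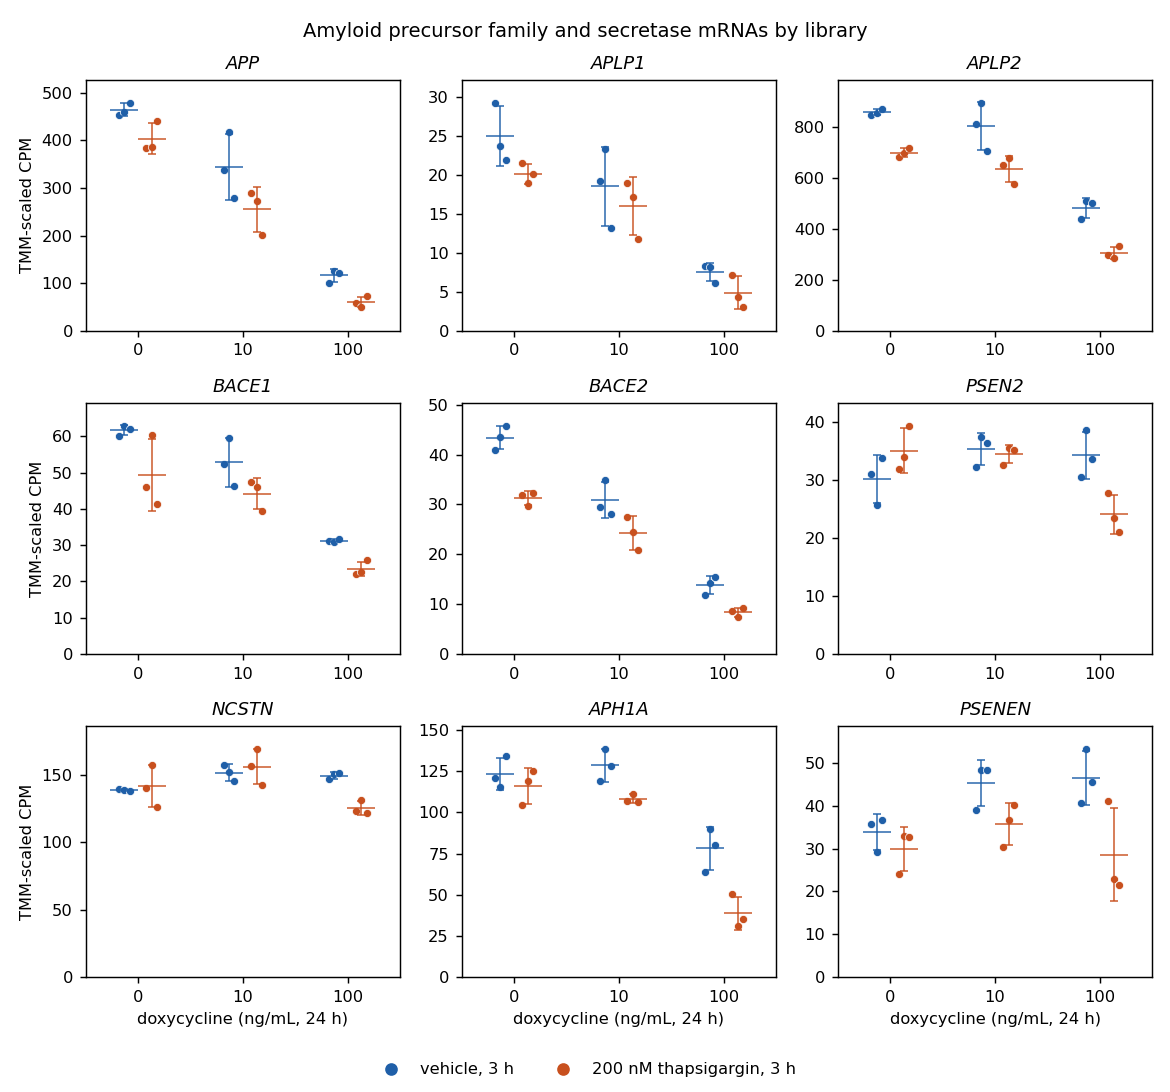
Levels of the 9 mRNAs in TMM-scaled CPM (vertical axes, from 0) against the dose of doxycycline in ng/mL, with 1 point per library and a bar and whiskers for the mean and SD of 3 libraries. Blue points are vehicle-treated and orange points thapsigargin-treated. APP, APLP1, APLP2, BACE1, BACE2 and APH1A sit lowest at 100 ng/mL, while PSEN2, NCSTN and PSENEN do not fall with dose in vehicle-treated cells.

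High ERN2 induction in unstressed cells went with lower mRNA of all 3 precursors, both beta-secretases and 1 of the 4 gamma-secretase genes. By edgeR's quasi-likelihood test at an adjusted p under 0.01, 6 of the 9 genes fell between No ERN2, control and High ERN2, control and 0 rose, where 7.49% of the 14444 genes tested fell. Their median log2 fold change was -0.87, against -0.0068 over all genes tested. In bulk RNA, fewer cells with a transcript and less of it per cell cannot be told apart.

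APP, the source of amyloid-beta, fell most. It lies on chromosome 21 at 25880550 to 26171128 (minus strand, build GRCh38). Its level was 453, 460.3 and 479.6 CPM in replicates 1 to 3 of No ERN2, control and 100.5, 126 and 121 CPM in High ERN2, control. The groups were far apart, with even the highest induced library well below the lowest uninduced one. The log2 fold change was -2.04 ± 0.12 (SE, n = 3 and 3), a level 4.11-fold lower, with an adjusted p of 2.44e-07 (edgeR).

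APLP1 and APLP2 are paralogs of APP that lack the amyloid-beta sequence. APLP1 (chromosome 19, 35867899 to 35879791, plus strand) was the rarer, at 29.3, 23.7 and 21.9 CPM in No ERN2, control and 8.24, 8.20 and 6.16 in High ERN2, control. All 3 induced libraries were below all 3 uninduced ones, with a log2 fold change of -1.77 ± 0.17 and an adjusted p of 1.44e-05 (edgeR). Exons of APLP1 share 232 bases with NPHS1 on the other strand, which held 0 to 1 reads in No ERN2, control and 0 to 9 in High ERN2, control. APLP2 (chromosome 11, 130068147 to 130144811, plus strand), the most abundant of the 9, stood at 845, 853 and 869 CPM without induction and 437, 507 and 502 with it. Its groups were also separate, but the change was the smallest of the 3 precursors at -0.87 ± 0.10 (adjusted p = 6.23e-05, edgeR). The 95% intervals of the fold changes were -2.29 to -1.79 for APP, -2.14 to -1.40 for APLP1 and -1.09 to -0.65 for APLP2, so that of APLP2 did not overlap the other 2.

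The share of family reads therefore shifted. APP made up 34.1 to 35.0% of the reads on the 3 precursor genes in No ERN2, control libraries and 18.4 to 19.7% in High ERN2, control. The share of APLP2 was 63.4 to 63.8% and 79.0 to 80.1% in the same groups, and that of APLP1 stayed at or under 2.20% in every library. These shares are of reads and were not divided by length.

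BACE1, the beta-secretase that starts amyloid-beta release, lies on chromosome 11 (117285207 to 117316259, minus strand). It stood at 60.2, 62.9 and 61.9 CPM in No ERN2, control and 31.2, 30.8 and 31.7 CPM in High ERN2, control, and the spread within each group was small beside the gap between them. Its log2 fold change was -1.02 ± 0.11 with an adjusted p of 3.24e-05 (edgeR). Exons of BACE1 overlap 1872 bases of its antisense gene BACE1-AS and 1239 bases of RNF214 on the other strand. Whether reads were assigned by strand is not given in the sources used here, although the library kit keeps strand. BACE1-AS held 31 to 97 reads over all libraries and RNF214 894 to 1833, beside 319 to 1203 for BACE1, so the reads of BACE1 are uncertain.

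BACE2, a close relative that cuts APP mainly within the amyloid-beta sequence, lies on chromosome 21 (41167801 to 41282518, plus strand), as APP does. It stood at 41.0, 43.4 and 45.8 CPM in No ERN2, control and 11.7, 14.3 and 15.4 CPM in High ERN2, control. These groups did not overlap, and the fall was steeper than that of BACE1, with a log2 fold change of -1.69 ± 0.14 and an adjusted p of 3.87e-06 (edgeR). The 95% interval for BACE2 was -1.99 to -1.39 and that for BACE1 was -1.26 to -0.79, which do not overlap.

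Of the 4 gamma-secretase genes, 1 passed the test. APH1A (chromosome 1, 150265399 to 150269580, minus strand) codes for the scaffold subunit and stood at 121, 115 and 134 CPM in No ERN2, control and 64.1, 90.0 and 80.2 CPM in High ERN2, control. The groups were separate, with a log2 fold change of -0.70 ± 0.14 and an adjusted p of 0.00337 (edgeR). Without No ERN2, control replicate 1 or replicate 3, APH1A no longer passed and the count of genes that fell was 5. Exons of APH1A share 490 bases with C1orf54 on the other strand, so its reads are uncertain too. C1orf54 held 18 to 37 reads in No ERN2, control and 29 to 40 in High ERN2, control.

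NCSTN (chromosome 1, 160343272 to 160358952, plus strand) codes for nicastrin, the large glycoprotein subunit that receives substrates. Its level was 139.9, 139 and 138 CPM in No ERN2, control and 147, 150.3 and 151 CPM in High ERN2, control. The induced libraries lay slightly above the uninduced ones, but NCSTN was not called. Its log2 fold change was 0.06 ± 0.09 (adjusted p = 0.691, edgeR), with a 95% interval of -0.14 to 0.27. Exons of NCSTN share 129 bases with COPA on the other strand. COPA held 5302 to 6612 reads in No ERN2, control and 7939 to 11711 in High ERN2, control, so the reads of NCSTN are uncertain as well.

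PSEN2 (chromosome 1, 226870184 to 226896105, plus strand) codes for presenilin 2, a catalytic subunit. It stood at 31.2, 25.7 and 33.9 CPM in No ERN2, control and 30.6, 38.6 and 33.6 in High ERN2, control, with overlapping groups. The log2 fold change was 0.14 ± 0.14, with a 95% interval of -0.17 to 0.45 and an adjusted p of 0.546 (edgeR).

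PSENEN (chromosome 19, 35745114 to 35747519, plus strand) codes for PEN-2, which completes the complex and promotes cleavage of presenilin into its active form. It stood at 35.9, 29.1 and 36.6 CPM in No ERN2, control and 40.6, 53.3 and 45.4 CPM in High ERN2, control. All 3 induced libraries were above all 3 uninduced ones, but the log2 fold change of 0.42 ± 0.14 did not pass (adjusted p = 0.0754, edgeR). Its exons share 425 bases with AD000671.3 and 332 with U2AF1L4 on the other strand and 285 with AD000671.1 on the same strand, so its reads are uncertain too.

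**Figure D2:**
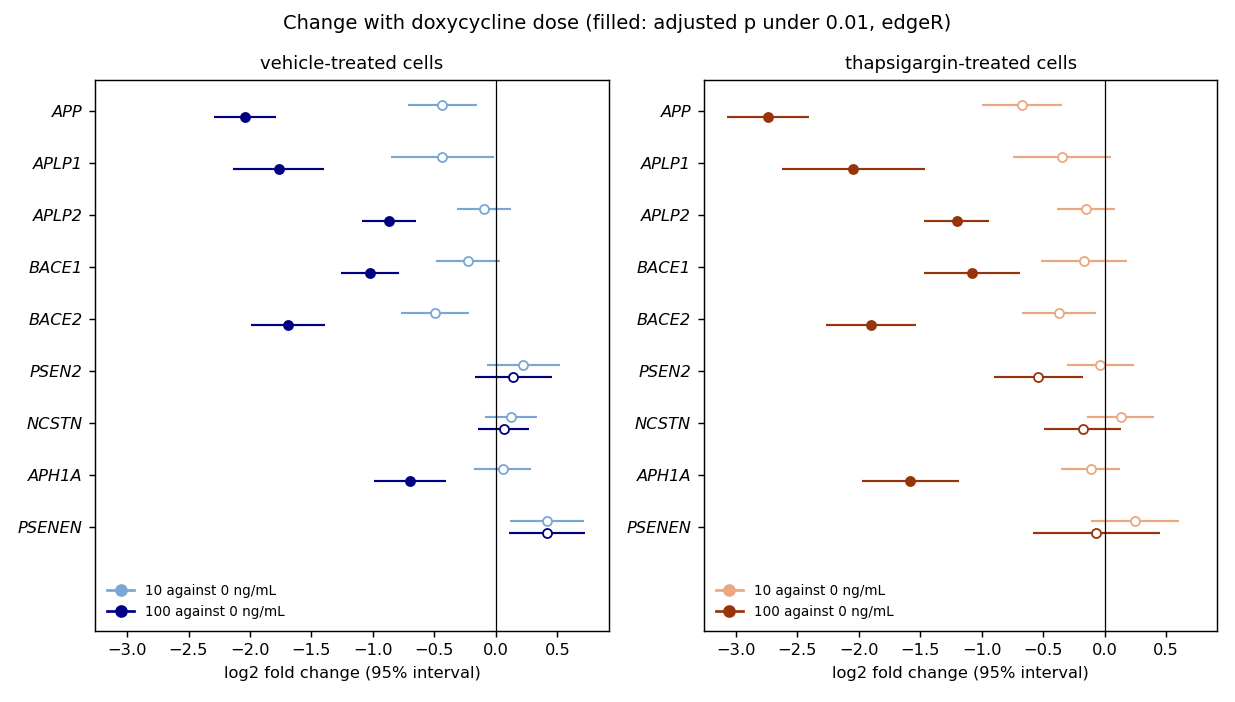
Log2 fold changes of the 9 mRNAs at 10 and 100 ng/mL doxycycline against 0 ng/mL (horizontal axes), in vehicle-treated (left) and thapsigargin-treated (right) cells, with bars for 95% intervals. Filled points passed an adjusted p of 0.01 by edgeR. The same 6 genes are filled at 100 ng/mL in both panels and no gene is filled at 10 ng/mL.

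Low ERN2 induction gave smaller differences. Between No ERN2, control and Low ERN2, control, 0 of the 9 genes passed by edgeR (0.193% of all 14497 genes tested did), while 3 were lower and 1 was higher at an unadjusted p under 0.05, as were 16.5% and 14% of all genes. APP stood at 337, 417 and 279.5 CPM in Low ERN2, control replicates 1 to 3, all below the uninduced libraries, with a log2 fold change of -0.43 ± 0.13 (adjusted p = 0.0824). ERN2 was also uneven in this group, and replicate 3, which held the most ERN2, held the least APP. The library with the most ERN2 also held the least APP in Low ERN2, stress and in both No ERN2 groups. In High ERN2, control, however, replicate 2 held the most of both, and in High ERN2, stress replicate 1 held the most ERN2 but not the least APP. How far ERN2 level accounts for the spread of APP within groups was not tested.

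BACE2 stood at 29.6, 34.9 and 28.1 CPM in the Low ERN2, control libraries, again all below the uninduced ones, with a log2 fold change of -0.50 ± 0.13 (adjusted p = 0.0767, edgeR). It was the 1 gene of the 9 called by DESeq2 (adjusted p = 0.00956), where 2.39% of all genes tested were called lower. APLP1 was at 19.1, 23.3 and 13.2 CPM and overlapped its uninduced group (log2 fold change -0.44 ± 0.19). PSENEN was at 39.0, 48.4 and 48.2 CPM, above the uninduced libraries (log2 fold change 0.41 ± 0.14, adjusted p = 0.0886, edgeR). Without Low ERN2, control replicate 1, PSENEN alone passed, as higher, where 8.05% of all genes did. The log2 fold changes of BACE1 (-0.23), APLP2 (-0.10), APH1A (0.05), NCSTN (0.12) and PSEN2 (0.22) were nearer to 0.

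Between the 2 induced doses in unstressed cells, the same 6 genes that fell at 100 against 0 ng/mL fell at 100 against 10 ng/mL by edgeR, where 2.43% of all 14549 genes tested fell. These comparisons share the High ERN2, control libraries. The log2 fold changes were -1.60 ± 0.16 for APP, -1.32 ± 0.22 for APLP1, -1.18 ± 0.15 for BACE2, -0.78 ± 0.13 for BACE1, -0.76 ± 0.12 for APLP2 and -0.74 ± 0.13 for APH1A, with adjusted p-values of 0.00205 to 0.00985 (edgeR). The count was sensitive to single libraries. Without High ERN2, control replicate 3 it was 0, and without High ERN2, control replicate 1 or Low ERN2, control replicate 2 it was 1, which was APP. PSENEN (0.01), NCSTN (-0.05) and PSEN2 (-0.07) lay near 0.

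Under thapsigargin the dose effect covered the same 6 genes. Between No ERN2, stress and High ERN2, stress, 6 of the 9 fell by edgeR and 0 rose, where 9% of the 14358 genes tested fell. The median log2 fold change of the 9 was -1.20, against 0.04 over all genes. APP stood at 384, 385 and 441 CPM in No ERN2, stress and 58.7, 50.8 and 72.4 CPM in High ERN2, stress. No other group held so little APP, with a mean at 13.1% of that in uninduced, unstressed cells. The log2 fold change was -2.74 ± 0.15, or 6.67-fold lower, with an adjusted p of 7.13e-07 (edgeR).

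Among the other precursors, APLP1 stood at 21.4, 18.9 and 20.1 CPM in No ERN2, stress and 7.19, 4.30 and 3.10 in High ERN2, stress (log2 fold change -2.04 ± 0.27, adjusted p = 0.00018, edgeR). APLP2 stood at 682, 696 and 716 and 298, 283 and 330.3 CPM (log2 fold change -1.20 ± 0.12, adjusted p = 2.85e-05, edgeR). In both, the 3 induced libraries were below all uninduced ones.

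Both beta-secretases were lower as well. BACE2 stood at 31.8, 29.6 and 32.3 CPM in No ERN2, stress and 8.53, 7.39 and 9.19 in High ERN2, stress (log2 fold change -1.90 ± 0.17, adjusted p = 1.22e-05, edgeR). BACE1 stood at 46.0, 60.4 and 41.5 and 22.1, 22.5 and 25.8 CPM, also without overlap (log2 fold change -1.08 ± 0.18, adjusted p = 0.00108, edgeR). BACE1 did not pass without High ERN2, stress replicate 2, which left a count of 5.

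Of the gamma-secretase genes, APH1A alone passed under thapsigargin as well, at 104, 119 and 125 CPM in No ERN2, stress against 50.2, 31.3 and 35.2 in High ERN2, stress. Its log2 fold change was -1.58 ± 0.18 (adjusted p = 7.34e-05, edgeR), beside -0.70 in unstressed cells, and that difference did not pass its own test, given with the thapsigargin responses. PSEN2 stood at 31.9, 33.9 and 39.4 and 27.7, 23.5 and 21.1 CPM, again without overlap, but its log2 fold change of -0.54 ± 0.17 did not pass (adjusted p = 0.0382, edgeR). Without High ERN2, stress replicate 1 it did, and the count was 7. With edgeR fitted over all 6 groups PSEN2 also passed (adjusted p = 0.00325), again with a count of 7. The share of all genes called in that fit is not given here.

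NCSTN stood at 140.2, 158 and 126 CPM in No ERN2, stress and 123, 131 and 122 in High ERN2, stress, with overlapping groups (log2 fold change -0.18 ± 0.14, adjusted p = 0.405, edgeR). PSENEN stood at 24.0, 33.0 and 32.7 and 41.0, 23.0 and 21.6 CPM (log2 fold change -0.07 ± 0.24, adjusted p = 0.871, edgeR). Replicate 1 of High ERN2, stress lay within the range of the unstressed libraries of that dose for PSENEN, and replicates 2 and 3 were far lower. The same library was the highest of its group in APH1A, APLP1, PSEN2 and ERN2.

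At the lower dose under thapsigargin, 0 of the 9 genes passed between No ERN2, stress and Low ERN2, stress by edgeR, as did 0% of all 14509 genes tested, while APP and BACE2 were lower at an unadjusted p under 0.05, as were 2.99% of all genes. APP stood at 290.3, 274 and 202 CPM in Low ERN2, stress, all below the uninduced stressed libraries (log2 fold change -0.67 ± 0.15, adjusted p = 0.387). Here the libraries deviated together by replicate number, and with that number as a block APP passed (log2 fold change -0.68, adjusted p = 2.38e-05, edgeR), where 2.53% of all genes fell. DESeq2 without the block also called APP alone of the 9 (adjusted p = 0.00796), where 0.321% of all genes were lower. BACE2 stood at 27.5, 24.5 and 20.8 CPM, below all uninduced stressed libraries (log2 fold change -0.37 ± 0.13).

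Between Low ERN2, stress and High ERN2, stress the same 6 genes fell by edgeR, where 5.32% of all 14493 genes tested fell. Their log2 fold changes ran from -2.07 for APP to -0.91 for BACE1, with adjusted p-values of 0.000325 to 0.00355. Without High ERN2, stress replicate 2 the count was 1, again APP, and without Low ERN2, stress replicate 1 or 2 it was 4. PSEN2 (-0.51), PSENEN (-0.32) and NCSTN (-0.31) were lower on average without passing. When edgeR was fitted over all 6 groups, PSEN2 (adjusted p = 0.00649) and NCSTN (adjusted p = 0.00869) passed as well, and the count was 8. The share of all genes called is not given for these other fits, so their counts show only how far the result depends on the fit.

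Thapsigargin itself gave no called change in the 9 mRNAs at any dose. Without doxycycline, 0 of the 9 passed by edgeR, where 11.2% of all 14397 genes tested changed in either direction. BACE2 came closest, at 41.0, 43.4 and 45.8 CPM in control and 31.8, 29.6 and 32.3 CPM in stress. The 2 groups were separate, with a log2 fold change of -0.47 ± 0.11 and an adjusted p of 0.01, just above the threshold, and DESeq2 called it (adjusted p = 0.00158), where 7.52% of all genes were lower. Without No ERN2, stress replicate 3, edgeR called it too, where 5.54% of all genes were called lower. APLP2 was next (log2 fold change -0.28 ± 0.09, adjusted p = 0.0413, edgeR). Every APLP2 library with thapsigargin was below every one without it. Of the 9, 4 were lower at an unadjusted p under 0.05 (BACE2, APLP2, BACE1 and APLP1), where 17.2% of all genes were.

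In Low ERN2 cells, 0 of the 9 passed for thapsigargin by edgeR, where 1.45% of all 14607 genes tested changed, and 5 were lower at an unadjusted p under 0.05, where 11% of all genes were. DESeq2 also called 0 of the 9, where it called 8.06% of all genes. In High ERN2 cells again 0 passed, where 0.201% of all 14427 genes changed, and 7 were lower at an unadjusted p under 0.05, where 12.3% of all genes were. All 9 log2 fold changes were negative there, from -0.98 for APH1A to -0.23 for NCSTN, with a median of -0.64 against -0.0024 over all genes.

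The High ERN2 thapsigargin result depended on the test. APP stood at 100.5, 126 and 121 CPM in control and 58.7, 50.8 and 72.4 in stress (log2 fold change -0.92 ± 0.16, adjusted p = 0.0211, edgeR). APH1A stood at 64.1, 90.0 and 80.2 and 50.2, 31.3 and 35.2 CPM (log2 fold change -0.98 ± 0.20, adjusted p = 0.0333), and for APLP2 the log2 fold change was -0.64 ± 0.12 (adjusted p = 0.0256). Stressed and unstressed libraries of these 3 genes did not overlap, nor did those of BACE2, BACE1, NCSTN and PSEN2. The share of all genes without overlap was not counted. DESeq2 called all 3 lower, where it called 3.6% of all genes lower, and edgeR fitted over all 6 groups called them and BACE2, where 4.71% were lower. Without High ERN2, stress replicate 1, the library with the most ERN2 of its group, edgeR called 5 of the 9 lower (APP, APLP1, APLP2, APH1A and PSENEN), where 7.84% of all genes were.

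**Figure D3:**
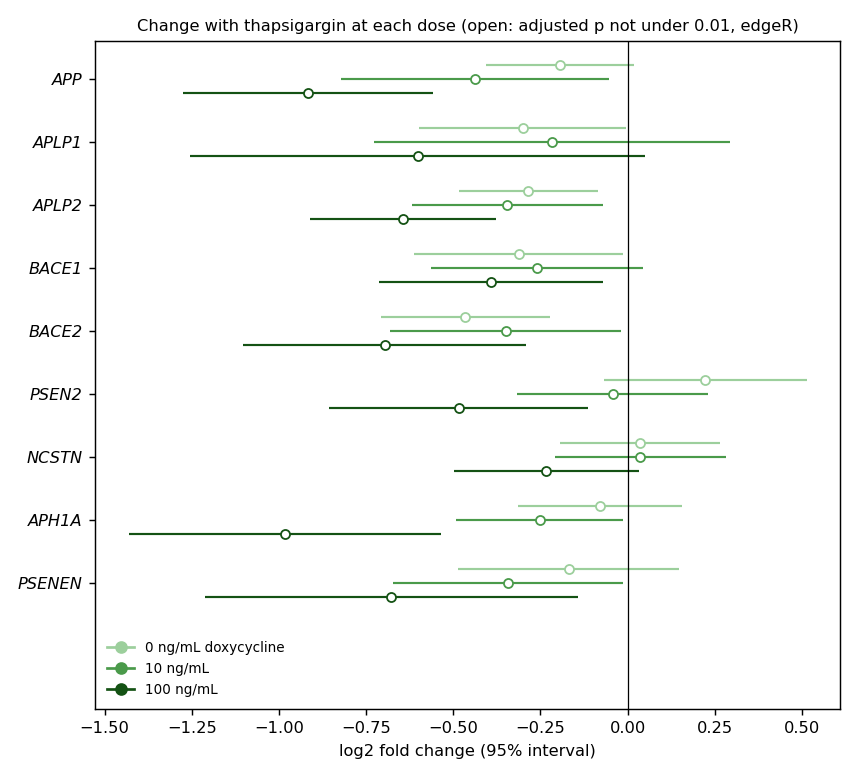
Log2 fold changes of the 9 mRNAs with 200 nM thapsigargin against vehicle (horizontal axis) at 0, 10 and 100 ng/mL doxycycline, with bars for 95% intervals. All points are open because none passed an adjusted p of 0.01 by edgeR. The dark points of the 100 ng/mL dose lie farthest to the left for each gene.

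The response to thapsigargin at each dose was also compared directly with that in uninduced cells. At 10 ng/mL, 0 of the 9 genes differed by edgeR, and 0% of all 14857 genes tested did. DESeq2 called 0 of the 9 as well, and 0.00968% of all genes, and 0 of the 9 had an unadjusted p under 0.05 by either tool. At 100 ng/mL, 0 of the 9 passed, where 0.0406% of all 14768 genes did, and DESeq2 called 0 of the 9, where it called 2.75% of all genes. At an unadjusted p under 0.05, 4 genes had a lower response at 100 ng/mL by both tools, where 9.15% of all genes did by edgeR. These were APH1A (difference in log2 fold change -0.82 ± 0.23, adjusted p = 0.0791, edgeR), APP (-0.64 ± 0.17, adjusted p = 0.0744), PSEN2 (-0.62 ± 0.21, adjusted p = 0.103) and APLP2 (-0.28 ± 0.13, adjusted p = 0.195). The 95% interval for APH1A was -1.31 to -0.33 and that for BACE1 was -0.43 to 0.44. Without High ERN2, stress replicate 1, APH1A passed, where 2.82% of all genes had a lower response.

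NCSTN, the gene of the set whose mean level varied least over the 6 groups, gave a ratio within each library that needs no scaling between libraries. Per read on NCSTN, APP had 3.24 to 3.47 reads in No ERN2, control, 1.92 to 2.74 in Low ERN2, control and 0.685 to 0.841 in High ERN2, control. With thapsigargin the values were 2.45 to 3.49, 1.42 to 1.86 and 0.388 to 0.596. APP thus had more reads than NCSTN in every library at 0 and 10 ng/mL and fewer in every library at 100 ng/mL. APH1A went from 0.832 to 0.969 to 0.437 to 0.599 reads per NCSTN read between No ERN2, control and High ERN2, control, and to 0.238 to 0.407 in High ERN2, stress. PSENEN went from 0.21 to 0.265 to 0.277 to 0.354 and then 0.175 to 0.333. The last of these ranges spans the first, with replicate 1 alone at its top. Such a ratio shows unequal change and not that NCSTN was constant. NCSTN was chosen for it after its values were seen, and its reads are uncertain where its exons overlap COPA.

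**Figure D4:**
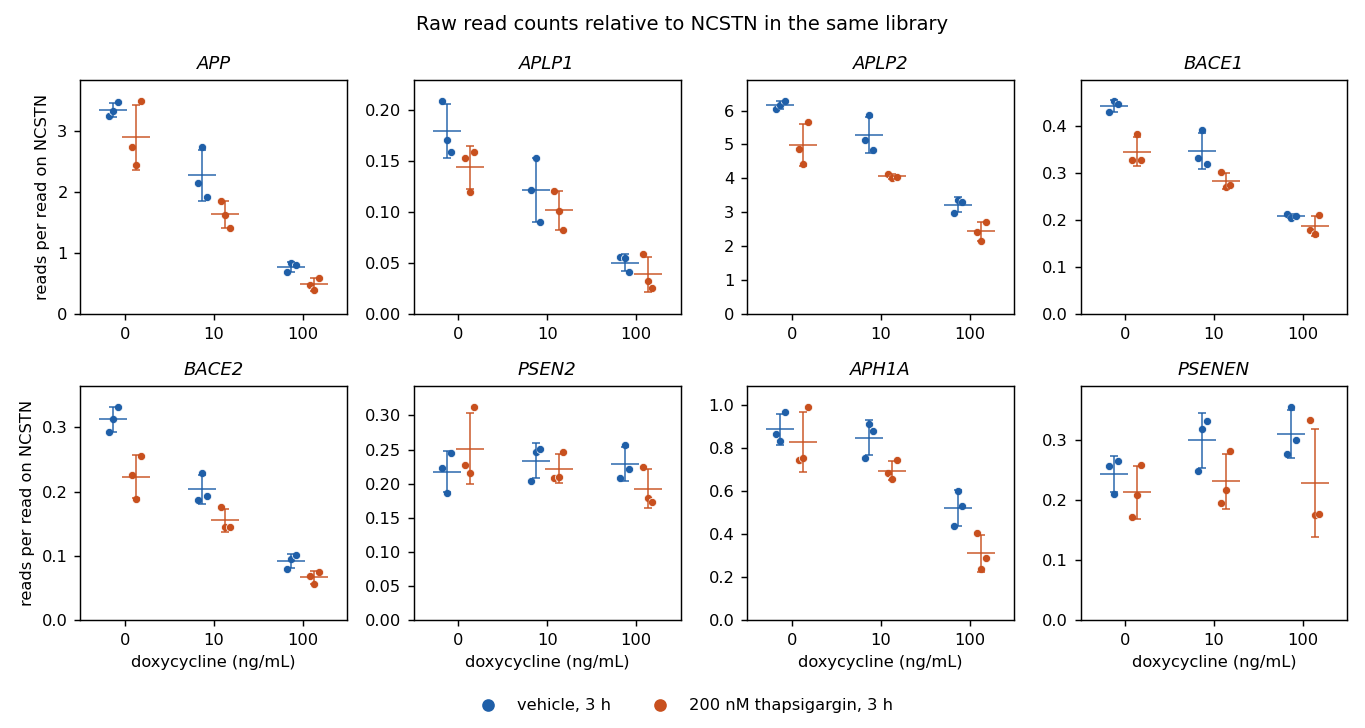
Raw reads of the 8 other genes per read on NCSTN in the same library (vertical axes, from 0) against the dose of doxycycline in ng/mL, with 1 point per library and a bar and whiskers for the mean and SD of 3 libraries. Blue is vehicle and orange thapsigargin. APP lies at 3.24 to 3.47 in uninduced vehicle libraries and at 0.685 to 0.841 at 100 ng/mL, while PSEN2 keeps overlapping ranges throughout.

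The letters CTGCAG are shown for these transcripts because it lies in the loop of a site in XBP1 mRNA that IRE1 endonucleases cut. The hexamer was searched on the transcript strand of 1 main GENCODE transcript per gene. It reads the same on both strands. It occurred 5 times in APP, 7 in APLP1, 1 in APLP2, 3 in BACE1, 4 in BACE2, 2 in PSEN2, 2 in NCSTN, 1 in APH1A and 1 in PSENEN. It was in 82.1% of 19677 protein-coding transcripts, with a median of 0.72 per kb, and in the main transcripts of all 9 genes. Per kb of transcript there were 2.81 copies in APLP1, 1.44 in APP, 1.34 in BACE2, 0.867 in PSEN2, 0.681 in NCSTN, 0.602 in PSENEN, 0.584 in APH1A, 0.474 in BACE1 and 0.267 in APLP2. PSEN2, NCSTN and PSENEN were not called lower by the main edgeR fits, each on its own groups and all their libraries. Their rates lay between those of genes that were called. PSEN2 was nevertheless lower in High ERN2, stress than in No ERN2, stress (log2 fold change -0.54), without overlap of the libraries. Whether the rate of copies is related to the changes was not tested. RNA folding was not examined, and a match is no evidence of a cut.

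The windows of 30 bases below are written 5′ to 3′ as DNA on the transcript strand, with the hexamer in capitals. APP and APLP1 carry it at a matching place in coding exon 3, with 21 of the 30 bases alike (chr21:26090043-26090072, minus strand, and chr19:35870896-35870925, plus strand, build GRCh38). That count includes the hexamer, which the search fixed, and other pairs of copies were not compared. Beside them are the single copies of APLP2 (chr11:130126739-130126768, plus strand, coding exon 9) and of APH1A (chr1:150265581-150265610, minus strand, 3′ UTR). A coding copy in NCSTN (chr1:160350130-160350159, plus strand, exon 5) is also given, as a gene that the main edgeR fits did not call lower.
APP: gtctaccctgaaCTGCAGatcaccaatgtg
APLP1: atgtacccggagCTGCAGattgcacgtgtg
APLP2: atttcgagacctCTGCAGatgataatgagc
APH1A: gccactccagagCTGCAGtgccactggagg
NCSTN: agagtttgctcaCTGCAGagaaatacagtg

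Promoters were searched for the elements through which ER stress factors act. RefSeq windows of 300 bases (250 before and 50 after the start site, build GRCh38.p14) were at hand for 8 of the 9 genes, with 11 start sites in all. BACE2 had no entry. On either strand, the core of the XBP1 element, TGACGTGG, was in 1 of the 11 and in 0.729% of all 35116 promoters. The ER stress element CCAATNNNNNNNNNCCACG was in 0 of 11 (0.0769% of all), its second form ATTGGNCCACG in 0 (0.0541%) and the cyclic AMP element TGACGTCA in 0 (1.85%). The 1 match lay in the promoter of NCSTN, in reverse complement, 145 bases before the RefSeq start site (chr1:160343227-160343256, plus strand). GENCODE starts the NCSTN gene at 160343272, closer to the match. The match is shown, with the matched letters in capitals, as the only one in the windows searched.
NCSTN promoter: ttcggacgcctCCACGTCAgcgaccctctc

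Over the 18 libraries, the genes whose log2 CPM followed each of the 9 most closely were ranked among 15019 genes by Pearson's r. This is a description across 18 points that share the design of 6 groups. APP was closest to EMC10 (r = 0.994), ERGIC1 (0.994) and PTTG1IP (0.993), and BACE2 to GLB1 (0.994), ERGIC1 (0.994) and PRDX4 (0.992). APLP2 was closest to MBTPS1, FKBP9 and KDELR1 (0.991 to 0.993) and APH1A to ATP6V0B, CDIPT and CLSTN1 (0.988 to 0.991). APLP1 was closest to MMP2, GPX3 and EPHX1 (0.978 to 0.987), and BACE1 to NOMO1, SORCS1 and SERPINE2 (0.974 to 0.976). The genes that the main edgeR fits did not call lower had weaker neighbours. These were RAB34, NTPCR and LRRC41 for PSENEN (0.949 to 0.958), TRIP6, RPAP1 and MUL1 for PSEN2 (0.933 to 0.936), and PARM1, HM13 and SURF4 for NCSTN (0.820 to 0.878). Among the 9 themselves, r between APP and BACE2 was 0.991, between APP and NCSTN 0.391 and between APP and PSENEN 0.106.

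Of 41 other genes that act around the precursors, 39 could be tested (SEZ6 and CHL1 were too rare). At 100 against 0 ng/mL, 16 fell and 0 rose in unstressed cells, and 19 fell and 0 rose under thapsigargin, by edgeR, where 7.49% and 9% of all genes fell. Between No ERN2, control and Low ERN2, control, 0 passed. Of the 3 alpha-secretases, ADAM9 fell in unstressed cells, from 98.4 ± 6.24 to 57.2 ± 4.56 CPM (log2 fold change -0.83 ± 0.11, adjusted p = 0.000193), while ADAM10 (-0.46) and ADAM17 (-0.25) did not pass. Under thapsigargin ADAM17 passed (-0.71, adjusted p = 0.00732) and ADAM9 did not (-0.63, adjusted p = 0.017). APH1B, the other APH1 gene, stood at -0.08 ± 0.18 on the log2 scale and did not pass.

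Among 11 adaptors and sorting receptors of APP, 4 fell in unstressed cells and the same 4 under thapsigargin, which were SORT1, SORL1, LRP1 and ITM2C. SORT1, a sorting receptor, went from 241 ± 7.30 to 74.0 ± 5.46 CPM (log2 fold change -1.75 ± 0.10, adjusted p = 3.03e-07), and SORL1, which returns APP from endosomes to the Golgi, from 42.8 ± 1.22 to 16.8 ± 0.653 CPM (-1.39 ± 0.12, adjusted p = 5.19e-06). The list's median log2 fold change was -0.25. The cytosolic adaptors of the APBA and APBB families did not pass at 100 ng/mL.

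Of 16 other secretase substrates tested, 9 fell in unstressed cells (7.49% of all genes did) and 11 under thapsigargin (9%), with a median log2 fold change of -0.84 in the former. CD44, a cell surface glycoprotein, went from 81.2 ± 11.4 to 21.9 ± 3.99 CPM (-1.94 ± 0.16, adjusted p = 3.49e-06) and the receptor NOTCH3 from 44.0 ± 8.52 to 11.7 ± 2.23 CPM (-1.96 ± 0.18, adjusted p = 8.49e-06). Of 5 proteases that degrade amyloid-beta, ECE1 (-1.75 ± 0.12, adjusted p = 1.04e-06) and MME (-1.43 ± 0.20, adjusted p = 0.000326) fell in unstressed cells and again under thapsigargin (-2.55 and -1.18). Of 3 genes that regulate precursor or gamma-secretase traffic, 0 passed in unstressed cells and RER1, an ER retrieval receptor, fell under thapsigargin (-0.76, adjusted p = 0.00264).

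Thapsigargin without doxycycline moved 7 of the 39 by edgeR, 5 of them lower, where 11.2% of all genes changed. NOTCH3 had the smallest adjusted p of its list, from 44.0 ± 8.52 to 14.4 ± 3.21 CPM (log2 fold change -1.60 ± 0.18, adjusted p = 6.25e-05). ADAM9 fell (-0.45, adjusted p = 0.00726), and the adaptor APBA3 rose (0.62, adjusted p = 0.00581).

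**Figure D5:**
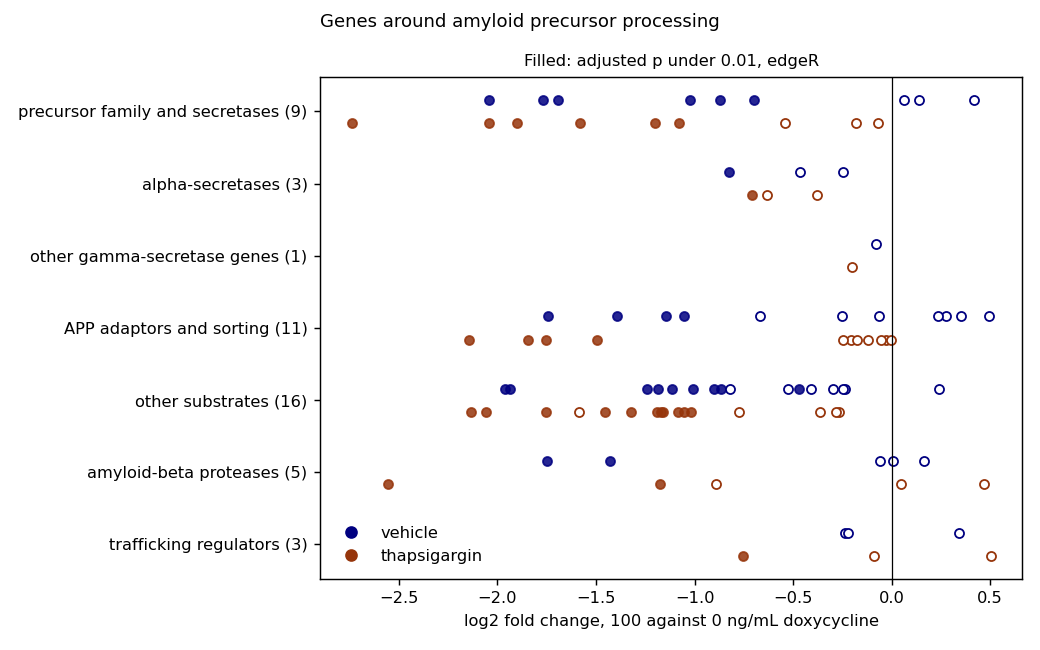
Log2 fold changes at 100 against 0 ng/mL doxycycline (horizontal axis) for the 9 genes and 6 lists of genes that act around them, with the number tested in parentheses. Blue points are from vehicle-treated and orange points from thapsigargin-treated cells, and filled points passed an adjusted p of 0.01 by edgeR. All filled points lie left of 0.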

How the data were processed

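RNA was sequenced from HEK293doxERN2 cells in 18 libraries. Per the paper's methods and the submitters' processing notes, the authors aligned single-end reads with STAR to hg38 in the VIPER pipeline and deposited raw read counts per gene symbol, without normalization or filter. The aligner version, annotation and strand setting are not given in the sources used here, and 28 rows carried a date in place of a symbol. Replicates were set against sampling noise by a chi-square test, and all 18 pairs exceeded it (6.99 to 60.2 per degree of freedom), so each library was counted.

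Each comparison used only its own groups. The filter was filterByExpr with a count minimum of 10. Counts were scaled by TMM and tested with edgeR 4.0.16 (quasi-likelihood) in R 4.3.3, with Benjamini-Hochberg adjustment over all genes and a threshold of 0.01. SEs were derived from the F statistic (log2 fold change over the root of F), and intervals are 95%. An exact permutation of 3 against 3 libraries cannot go below 0.1. With simulated 2-fold changes, edgeR recovered 75.1% of 197 changed genes among 14341 at 100 against 0 ng/mL, and 16.1% of 199 among 14641 in the interaction.

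Group and replicate came from the sample titles. The 9 genes, the lists and the tests were chosen with earlier results of these data known. Of each list, the 2 genes with the smallest adjusted p called at 100 ng/mL in unstressed cells and the 1 called with thapsigargin in uninduced cells are named, together with the members of short lists that passed and the 3 genes most like each of the 9. ADAM10, ADAM17, LRP1, ITM2C and RER1 were named after their values were seen. Positions, exon lengths and transcripts came from GENCODE 29 (GRCh38), where all 9 symbols matched, and promoters from RefSeq. Genes whose exons overlap were counted as the authors counted them. The alternatives were DESeq2 1.42.0, RLE size factors, library totals, no filter, all 6 groups in the fit, a replicate block, a threshold of 0.05 and each library left out. Same-numbered libraries deviated together (every r over 0.1, lowest 0.344) between No ERN2, stress and Low ERN2, stress, so the block is given there. Figures were drawn with matplotlib 3.10.9.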

Additional observations from a re-analysis of the deposited data

How the results depend on the processing

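The 24 falls reported for single genes (6 genes in 4 comparisons of the High dose) kept their direction in all 288 alternative fits and passed in 254 of them. Of the 34 that did not pass, 30 left out 1 library and 4 used all libraries. The counts of 6 in High ERN2, control against No ERN2, control and in High ERN2, stress against No ERN2, stress stayed within 1.5 times under every alternative run. Leaving out 1 library gave 0 to 6 genes for High against Low ERN2 in control, 1 to 6 in stress, 0 to 5 for thapsigargin in High ERN2 cells, and 0 to 1 for Low ERN2, control against No ERN2, control, for thapsigargin without doxycycline and for the interaction at 100 ng/mL. Counts of 0 became 1 with DESeq2 for Low against No ERN2 in control and in stress. For thapsigargin without doxycycline, they became 1 with RLE size factors, no filter or DESeq2 and 2 at an adjusted p of 0.05. In High ERN2 cells they became 3 with no filter, with DESeq2 or at 0.05, and 4 with all 6 groups fitted. Where no share of all genes is printed for a fit, its count shows only how far the result depends on the fit. The replicate block raised the count from 0 to 2 for thapsigargin without doxycycline (BACE2 and APLP2, where 12% of all genes fell), to 4 in Low ERN2 cells (BACE2, APLP2, PSENEN and APP, where 11.4% fell) and to 1 for Low against No ERN2 in stress. It left 5 for High against No ERN2 in control, without APH1A, and 5 for High against Low in stress, without BACE1. Every library was closest to its own number in 1 of 9 comparisons of 2 groups (Low against No ERN2 in stress), and elsewhere the numbers were treated as names only. Small differences changed sign. The interaction at 10 ng/mL for NCSTN was -0.012 with library totals. That at 100 ng/mL for BACE1, 0.0030 as reported, was -0.059 with RLE size factors, -0.17 with library totals, -0.033 with no filter, -0.11 with all 6 groups and -0.060 with DESeq2. With 1 library left out, the ranges were -0.157 to 0.132 for BACE1 at 100 ng/mL and, at 10 ng/mL, -0.0455 to 0.236 for BACE1, -0.104 to 0.282 for APLP1, -0.140 to 0.0255 for APLP2 and -0.0636 to 0.0949 for NCSTN. They were -0.154 to 0.00490 for PSEN2 and -0.0870 to 0.101 for PSENEN (High against Low ERN2, control), -0.0518 to 0.117 and -0.0369 to 0.0971 for NCSTN (thapsigargin at 0 and 10 ng/mL), -0.275 to 0.00733 for BACE1 and -0.0988 to 0.0564 for PSEN2 (Low against No ERN2, stress), and -0.417 to 0.0974 for PSENEN (High against No ERN2, stress). None of these passed as reported. The cause of these changes was not tested. Counts of 116 to 585 reads for APLP1 outside High ERN2, stress, and 60 to 145 there were the depth behind its values.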
